A study of Danio rerio with 6 samples.

Results

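The 10 genes described here belong to the stress axis of zebrafish larvae and to the cellular response to its hormone, cortisol. They are *pomca*, *mc2r*, *star*, *hsd11b2*, *nr3c1*, *nr3c2*, *fkbp5*, *klf9*, *tsc22d3* and *sgk1*. They were chosen by name, for what they encode, but with earlier results of these data known. Each was read from the probe set that carries its symbol alone, and each of the 10 had exactly 1 such probe set among 20806 of this kind, which name 19260 genes. The value table holds 75212 probe sets in all. The values come from 6 arrays of whole larvae at 4 days post fertilisation (dpf). In the *il7r*-/- group, 3 arrays came from homozygous mutants of 1 line, made with CRISPR/Cas9, which carries a small deletion in the coding sequence of the *interleukin 7 receptor*. In the WT group, 3 arrays came from the Tu (Tübingen) strain. Each RNA sample was a pool of larvae, and the labels name no treatment.

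In fish, stress makes the hypothalamus release corticotropin-releasing hormone, which drives the pituitary to release adrenocorticotropic hormone (ACTH), a peptide cut from the product of *pomca*. ACTH acts through its receptor, encoded by *mc2r*, on the interrenal gland, the counterpart of the mammalian adrenal cortex. There, the product of *star* moves cholesterol into mitochondria, which begins cortisol synthesis. The enzyme encoded by *hsd11b2* turns cortisol into inactive cortisone. Cortisol binds the glucocorticoid receptor, encoded by *nr3c1*, and the mineralocorticoid receptor, encoded by *nr3c2*, and the bound receptors act as transcription factors. *fkbp5*, *klf9*, *tsc22d3* and *sgk1* are known targets of the glucocorticoid receptor in vertebrates, and *fkbp5* and *klf9* are widely used as readouts of its activity in zebrafish larvae. None of the arrays measured cortisol itself.

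All values are on the log2 scale of the deposited table, all changes are *il7r*-/- minus WT, and the number of arrays limits their precision. The call needed both a limma p under 0.05, adjusted by Benjamini-Hochberg across the 75212 probe sets, and a change of more than 1.5-fold, which is 0.585 on the log2 scale. WT replicate 3 stood apart from the other arrays over all probe sets. Its Pearson correlation, a description over probe sets that share arrays, was 0.965 with each of the other WT arrays, against 0.977 between WT replicates 1 and 2 and 0.979 to 0.980 among the *il7r*-/- arrays. The change of each of the 10 genes is therefore also given without it, as is the median of each list. The probe set of *il7r* read 1.42, 1.64 and 1.71 in *il7r*-/- larvae, against 1.40, 1.80 and 1.76 in WT larvae. These values lie near the floor of the array, and a small deletion need not remove the transcript, so this probe set checks no label. None of the 10 genes (0) lies on the chromosome of *il7r* in the GRCz12tu assembly.

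None of the 10 genes was called changed between *il7r*-/- and WT larvae by limma, where 0.234% of all genes were called (0.0519% higher and 0.182% lower). The smallest adjusted p among them was 0.229, for *sgk1*. Without adjustment, 4 of the 10 had a limma p under 0.05, where 12.3% of all genes did, and the test named in the study's methods, with a fold over 1.5 and no adjustment, called 0 of the 10 and 2.47% of all genes. The 10 changes ran from -0.82 for *fkbp5* to 0.37 for *star*. Of these, 7 were below 0, as were 55% of the changes of all genes, and the median was -0.28, against -0.02 over all genes. In 5 of the 10 genes the 3 *il7r*-/- arrays did not overlap the 3 WT arrays, where 22.3% of all genes had groups that did not overlap (8.84% higher and 13.4% lower). *star* was the one in which the *il7r*-/- arrays were higher, and in *nr3c1*, *nr3c2*, *tsc22d3* and *sgk1* they were lower. For groups that do not overlap, an exact permutation test gives p = 0.1 (two-sided) by construction, the smallest p that 3 arrays against 3 allow. It therefore adds nothing for these 5 genes. Without WT replicate 3, the groups did not overlap in any of the 10 genes, where this was so for 37.6% of all genes. Of the 10, 3 were then higher, as were 14.8% of all genes, and 7 were lower, as were 22.8%. None of the 10 was called in this setting by limma (5 had an unadjusted p under 0.05, where 14.4% of all genes did), and 0.317% of all genes were called. The median was then -0.41.

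**Figure D1:**
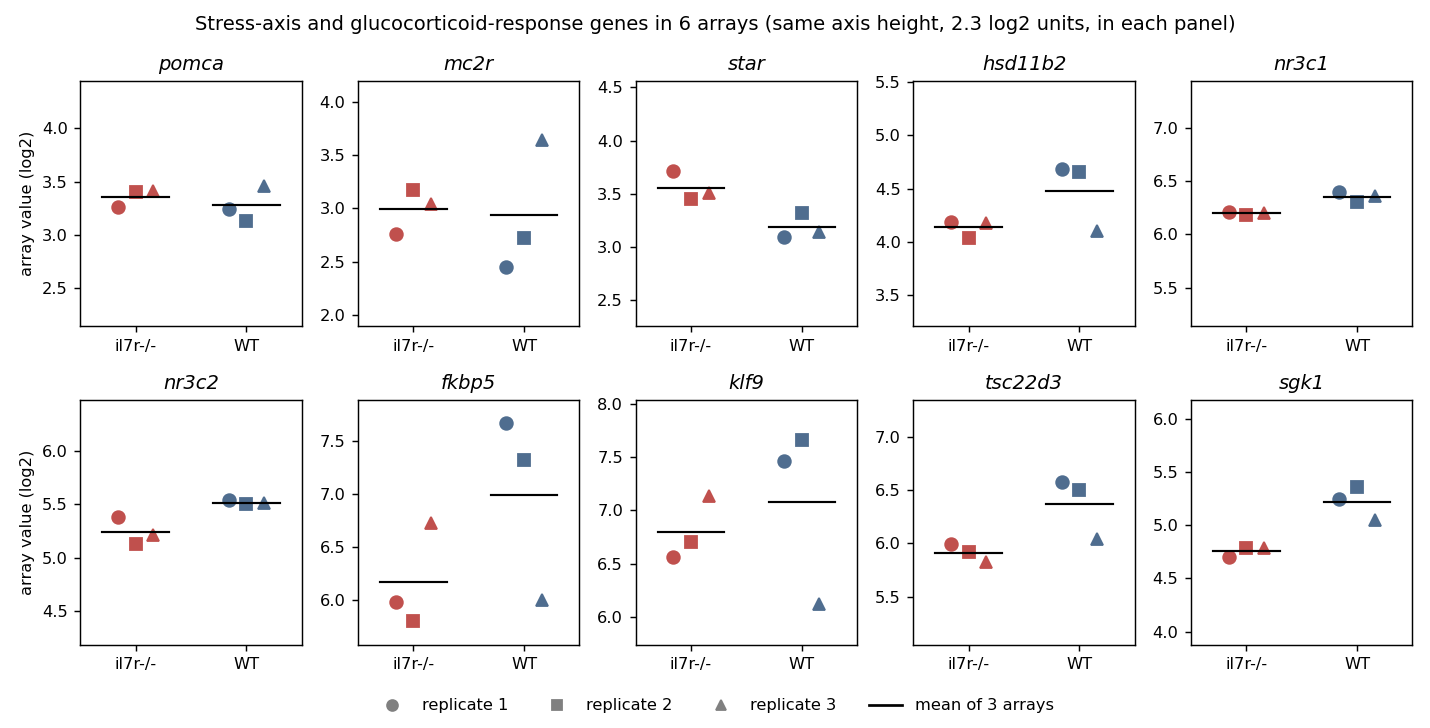
Array values (log2) of the 10 genes, with the 3 *il7r*-/- arrays left and the 3 WT arrays right in each panel, a marker shape for each replicate and a line at each group's mean; all panels span 2.3 log2 units. In *fkbp5* and *klf9* the points within each group are spread widely and the groups overlap, with WT replicate 3 at 6.00 and 6.12. In *nr3c1* the points within each group lie close together.

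The widest spread among the 10 was in *fkbp5*, which encodes a co-chaperone that binds the glucocorticoid receptor complex and dampens its response to hormone. *fkbp5* read 5.98, 5.81 and 6.73 in *il7r*-/- larvae, against 7.66, 7.32 and 6.00 in WT larvae. WT replicates 1 and 2 were above every *il7r*-/- array, whereas WT replicate 3 lay among the mutants. The mean was 6.17 ± 0.49 in *il7r*-/- and 6.99 ± 0.88 in WT larvae (SD, n = 3 each). The change was -0.82 (standard error, SE, 0.46, 95% interval -1.92 to 0.28, limma adjusted p = 0.541). It was the only one of the 10 with a change past the fold threshold. Without WT replicate 3 the change was -1.32 (SE 0.30, adjusted p = 0.170), and without WT replicate 1 it was -0.49.

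*klf9*, which encodes a zinc finger transcription factor induced by glucocorticoid and thyroid hormone, had a similar layout of arrays. It read 6.56, 6.70 and 7.13 in *il7r*-/- larvae, against 7.46, 7.66 and 6.12 in WT larvae. The lowest of all 6 arrays was WT replicate 3, and the other two WT arrays were the highest. The change was -0.28 (SE 0.41, 95% interval -1.26 to 0.70, limma adjusted p = 0.831) with all arrays and -0.76 (SE 0.20, adjusted p = 0.211) without WT replicate 3. Without WT replicate 2 instead, the change in *klf9* was 0.0067, so that its sign turned. The direction of *klf9* rested on which WT arrays were used.

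*tsc22d3*, which encodes the glucocorticoid-induced leucine zipper protein GILZ, read 5.99, 5.92 and 5.82 in *il7r*-/- larvae, against 6.58, 6.50 and 6.04 in WT larvae. All *il7r*-/- arrays lay below all WT arrays, and WT replicate 3 lay close to them. The change was -0.46 (SE 0.17, 95% interval -0.86 to -0.07, limma adjusted p = 0.354), and -0.63 without WT replicate 3 (adjusted p = 0.119). *sgk1*, which encodes a kinase that promotes ion transport and is induced through both receptors, read 4.70, 4.79 and 4.79 in *il7r*-/- larvae, against 5.25, 5.36 and 5.05 in WT larvae. Again the groups did not overlap, and the SD was 0.05 in *il7r*-/- and 0.16 in WT larvae (n = 3 each). The change in *sgk1* was -0.46 (SE 0.12, 95% interval -0.75 to -0.17, limma adjusted p = 0.229). It stayed between -0.55 and -0.39 when any 1 array was left out, and its adjusted p ranged from 0.103 to 0.458 over the alternatives.

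**Figure D2:**
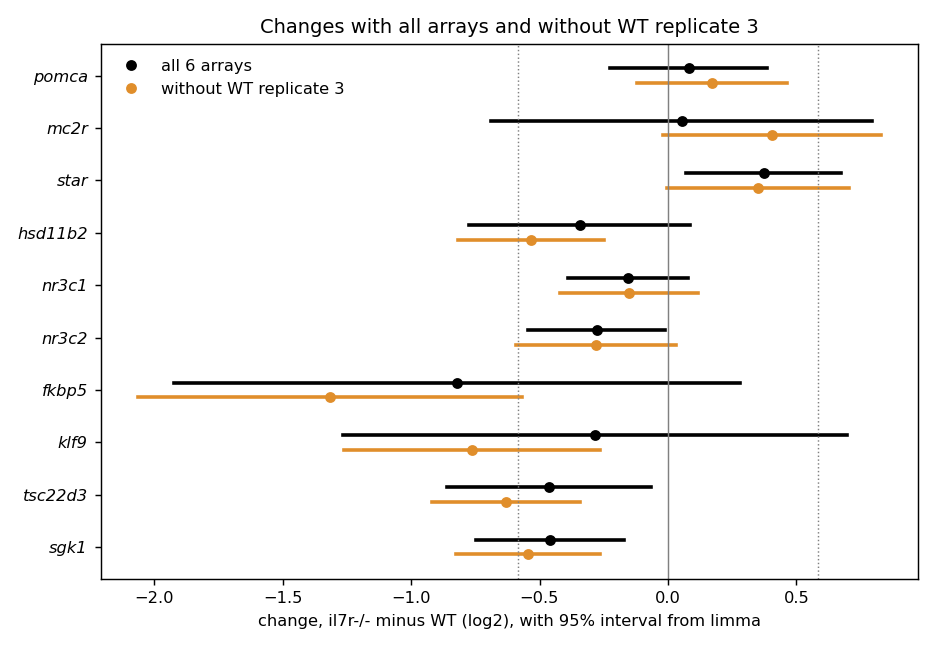
Change of each gene, *il7r*-/- minus WT (log2), with its 95% interval from limma, for all 6 arrays (black) and without WT replicate 3 (orange); dotted lines mark a fold change of 1.5. Without WT replicate 3, *fkbp5* lay at -1.32 in place of -0.82 and *klf9* at -0.76 in place of -0.28, while this left *nr3c1* and *nr3c2* almost where they were.

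The receptor genes had small changes. *nr3c1* read 6.21, 6.18 and 6.20 in *il7r*-/- larvae, against 6.40, 6.30 and 6.36 in WT larvae. Its SD of 0.02 (n = 3) in *il7r*-/- larvae was lower than that of nearly all genes, at percentile 1.61. The groups of *nr3c1* did not overlap, but the change was small, at -0.16 (SE 0.10, 95% interval -0.39 to 0.08, limma adjusted p = 0.584), and -0.15 without WT replicate 3. The interval with all arrays excludes a change of 1.5-fold in either direction. *nr3c2*, whose product binds cortisol in fish, which make no aldosterone, read 5.38, 5.13 and 5.21 in *il7r*-/- larvae, against 5.54, 5.50 and 5.51 in WT larvae. The WT arrays were nearly equal, the *il7r*-/- arrays had an SD at percentile 52.8 of all genes, and all WT arrays lay above them. The change in *nr3c2* was -0.28 (SE 0.11, 95% interval -0.54 to -0.01, limma adjusted p = 0.402), and without WT replicate 3 it was again -0.28.

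The genes of hormone input and synthesis were dim. *pomca*, *mc2r* and *star* had means over 6 arrays below 3.905, the upper limit of the lowest tertile over genes, and changes at this level can be compressed. *pomca* read 3.26, 3.40 and 3.41 in *il7r*-/- larvae, against 3.24, 3.13 and 3.46 in WT larvae, and the groups overlapped. The difference was 0.08 (SE 0.13, 95% interval -0.22 to 0.38, limma adjusted p = 0.849). It was 0.17 without WT replicate 3 and 0.0067 without WT replicate 2, so that its size rested on single arrays. *mc2r* read 2.76, 3.17 and 3.04 in *il7r*-/- larvae, against 2.45, 2.72 and 3.64 in WT larvae. Here WT replicate 3 was the highest of all 6 arrays, the reverse of its place in *klf9*. The change in *mc2r* was 0.05 (SE 0.31, adjusted p = 0.965) with all arrays and 0.41 (SE 0.17, adjusted p = 0.392) without WT replicate 3. Its sign turned without WT replicate 1, at -0.19, and also without WT replicate 2 or *il7r*-/- replicate 2. *star* read 3.72, 3.45 and 3.51 in *il7r*-/- larvae, against 3.10, 3.32 and 3.14 in WT larvae. It was the one gene of the 10 in which every *il7r*-/- array lay above every WT array, with a change of 0.37 (SE 0.13, 95% interval 0.07 to 0.67, limma adjusted p = 0.327). The change in *star* hardly depended on WT replicate 3, at 0.35 without it. In whole larvae, fewer cells of a type and less RNA per cell cannot be told apart.

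*hsd11b2* read 4.19, 4.04 and 4.18 in *il7r*-/- larvae, against 4.68, 4.66 and 4.1 in WT larvae. WT replicate 3 lay within the *il7r*-/- range, as in *fkbp5*, and the other two WT arrays were above all mutants. The change was -0.34 (SE 0.18, 95% interval -0.77 to 0.09, limma adjusted p = 0.511), and -0.53 (SE 0.11, adjusted p = 0.154) without WT replicate 3.

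The spread between arrays fell into separate patterns among these genes. In WT larvae, the SD of *fkbp5* and of *klf9* stood at percentile 99.7 among 19260 genes and that of *mc2r* at percentile 98.7, while that of *nr3c2* stood at percentile 2.16 and that of *nr3c1* at 9.41. *fkbp5* in WT replicate 3 differed by -1.49 from the mean of the other two WT arrays, a gap of a size that 0.244% of all genes reached in either direction. For *klf9* the gap was -1.44, which 0.286% of all genes reached, and for *mc2r* it was 1.06 in the opposite direction, which 1.01% reached. *fkbp5* and *klf9* were also set apart in *il7r*-/- replicate 3, but upward. There *fkbp5* lay 0.84 above the mean of the other two mutant arrays (0.332% of all genes had a gap as large) and *klf9* lay 0.50 above it (3.48%). *tsc22d3* did not share this, and was lowest in that array. When array profiles were compared after each gene's mean was taken off, *klf9* was at a root mean square distance of 0.342 from *fkbp5* over the 6 arrays, with 16 genes other than *fkbp5* nearer. The 3 nearest genes were *si:dkey-125i10.3* at 0.224, *gch2*, which encodes an enzyme of pteridine pigment synthesis, at 0.239, and *hspb6*, which encodes a small heat shock protein, at 0.255. These distances describe 6 arrays and carry no test.

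**Figure D3:**
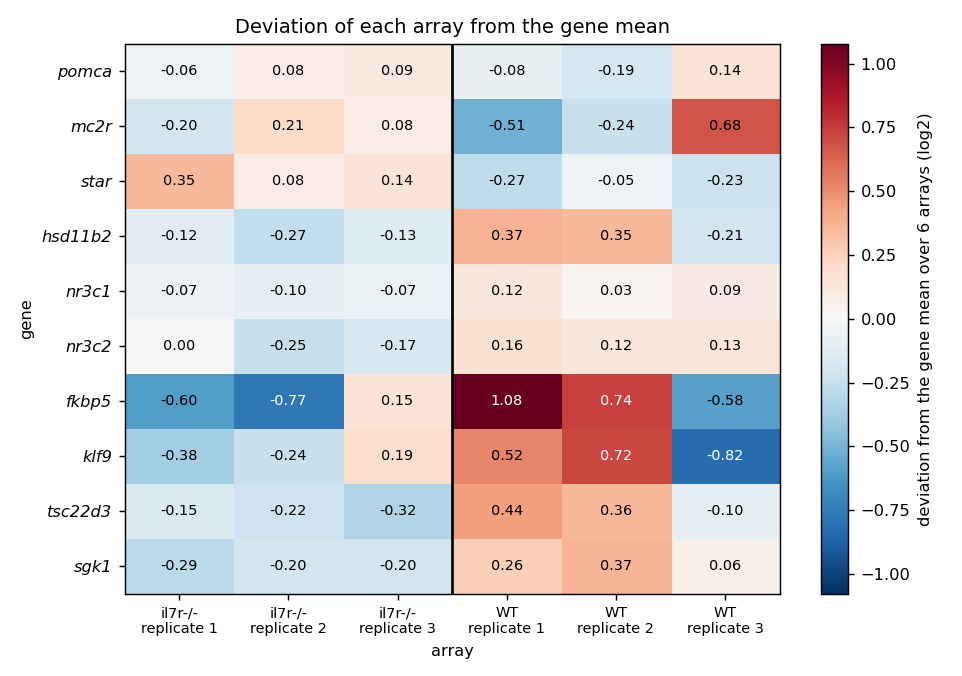
Deviation of each array from the gene's mean over the 6 arrays (log2, red above and blue below), with *il7r*-/- arrays left of the line and WT arrays right of it. WT replicate 3 is the only WT array in blue for *fkbp5* (-0.58) and *klf9* (-0.82), and the only one in red for *mc2r* (0.68).

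Other genes of the axis were read from lists that the 10 genes are not part of. Over all genes, 0.234% were called and 12.3% had an unadjusted limma p under 0.05, shares to set beside the counts of each list. Of 19 genes of hypothalamic and pituitary control of cortisol, all measured, 0 were called by limma, 1 had an unadjusted p under 0.05, and the median change was -0.0033. *avpr1aa*, which encodes a vasopressin receptor, was closest to a call, with a change of 0.40 (limma adjusted p = 0.260), followed by the oxytocin gene *oxt* with -0.28 (adjusted p = 0.444). Of 22 genes of interrenal steroid synthesis, 17 were measured, 0 were called and 1 had an unadjusted p under 0.05, with a median of 0.05. The dim *hsd3b1*, which encodes a steroid dehydrogenase, had a change of -0.56 (adjusted p = 0.241), and the ferredoxin gene *fdx1* had -0.26 (adjusted p = 0.421). Its relative *fdx1b*, in the same list, had a change of 0.0067, and its groups overlapped. *fdx1b* was dim, at 1.92, 1.83 and 1.91 in *il7r*-/- larvae, against 1.76, 1.93 and 1.95 in WT larvae. Without WT replicate 3 the medians of these lists were -0.0083 and 0.005. Of the measured genes, 7 of the 19 and 8 of the 17 were dim by the limit given above, where changes can be compressed.

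Of 12 genes of glucocorticoid inactivation and transport, 10 were measured, 6 of them dim by the limit given above. Of those measured, 0 were called and 3 had an unadjusted limma p under 0.05, with a median of -0.09, or -0.03 without WT replicate 3. This list held the smallest adjusted p among the genes of the axis outside the 10. *srd5a1*, which encodes a steroid 5-alpha-reductase, read 3.29, 3.19 and 3.04 in *il7r*-/- larvae, against 4.25, 3.84 and 3.81 in WT larvae, and is dim by the limit given above. The difference was -0.79 (SE 0.16, limma adjusted p = 0.137). It was called, with adjusted p = 0.0470, when only probe sets that name 1 gene were tested, as 1.11% of all genes were. *hsd20b2*, which encodes the enzyme that turns cortisone into a product for excretion in zebrafish, had a change of -0.63 (adjusted p = 0.177) and also had groups that did not overlap. Of 22 genes of receptor chaperones and cofactors, 18 were measured, and 0 were called or had an unadjusted p under 0.05, with a median of -0.02, or -0.065 without WT replicate 3. Here *hsp90aa1.2*, which encodes a heat shock protein of the chaperone that holds the receptor, had -0.36 (adjusted p = 0.536) and *nr1h3*, which encodes an oxysterol receptor, had -0.17 (adjusted p = 0.624).

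The largest list held 68 symbols of genes induced by glucocorticoids in vertebrate tissues, the 4 targets above left out, and 59 were measured. Of these, 0 were called, 7 had a change below 0 and 3 a change above 0 at an unadjusted limma p under 0.05, where 8.27% of all genes were lower and 4.08% higher at this p. The list's median was -0.03, or -0.10 without WT replicate 3, against -0.02 over all genes in both cases, and its changes ran from -1.10 to 0.70. Both values were closer to 0 than the -0.28 and -0.41 of the 10 genes, a difference that was not tested. The 10 also hold genes that are not targets. The 4 targets *fkbp5*, *klf9*, *tsc22d3* and *sgk1* had changes of -0.82, -0.28, -0.46 and -0.46. *anxa1b*, which encodes an annexin, read 3.95, 3.51 and 3.04 in *il7r*-/- larvae, against 4.66, 4.81 and 4.33 in WT larvae, a change of -1.10 (SE 0.25, limma adjusted p = 0.185). *per1a*, a clock gene that glucocorticoids also induce, read 5.11, 4.96 and 5.22 in *il7r*-/- larvae, against 5.99, 5.99 and 5.51 in WT larvae, a change of -0.73 (SE 0.17, adjusted p = 0.185). In both genes the groups did not overlap. The list also holds 2 related annexin genes, *anxa1a* with 0.70, the highest change of the list, and *anxa1c* with -0.41. Their limma adjusted p was 0.585 and 0.546, and in each the groups overlapped. In WT replicate 3, 33 of the 59 genes lay below both other WT arrays, where 38.8% of all genes did, with a median gap of -0.12.

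**Figure D4:**
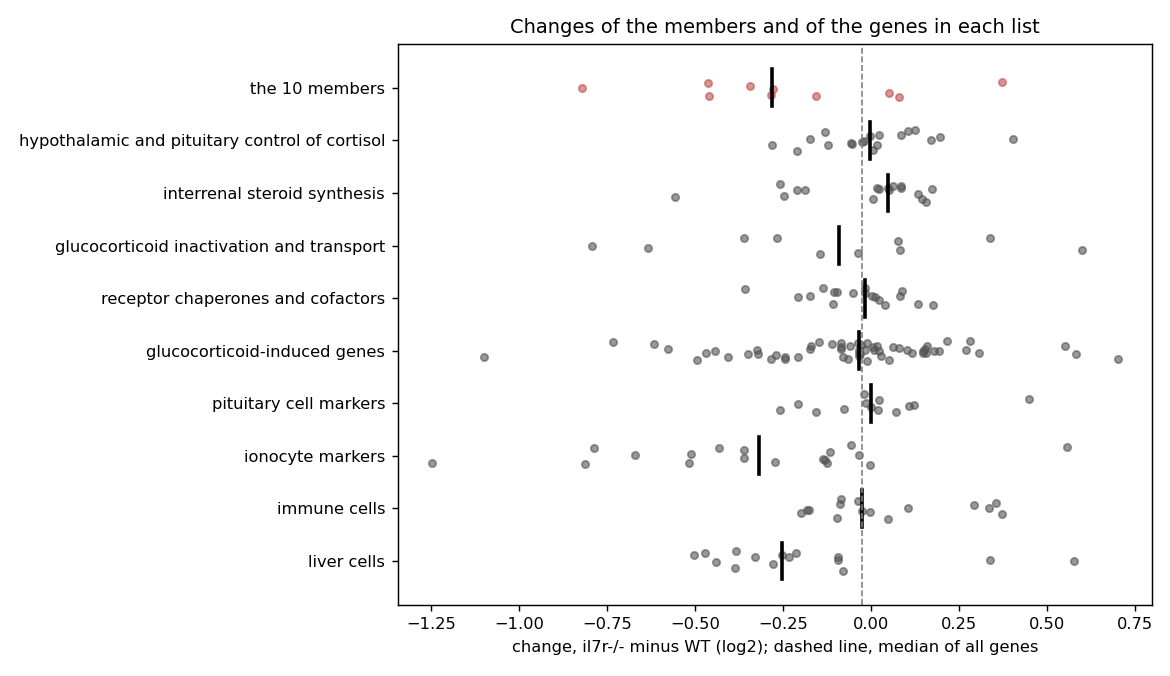
Change of each gene, *il7r*-/- minus WT (log2), for the 10 genes (red) and for each list (grey), with a black bar at each median and a dashed line at the median of all genes, -0.02. The medians of the 10 genes (-0.28), of the ionocyte markers (-0.32) and of the liver markers (-0.25, or -0.15 without WT replicate 3) lie furthest to the left.

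Markers of ionocytes, the skin cells that take up ions from the water, are given beside *nr3c2*, *sgk1* and *hsd11b2*. The mammalian counterparts of these 3 genes act in ion-transporting cells. The change was below 0 in 17 of 18 measured markers, where it was below 0 in 55% of all genes, and 0 were called. An unadjusted limma p under 0.05 was found for 6, 5 lower and 1 higher, where 8.27% and 4.08% of all genes were. The median of the markers was -0.32, or -0.415 without WT replicate 3. Their summed linear level was 584 to 697 in *il7r*-/- arrays and 763 to 963 in WT arrays, which did not overlap. Such a sum weighs the brightest genes most, here *atp1b1b* and *atp6v1aa*, whose groups overlapped. The groups did not overlap in 5 markers that were lower and 1 that was higher, where 13.4% and 8.84% of all genes were. Among the 5 was *rhcga*, with the largest change of the list, -1.25 (limma adjusted p = 0.215). *rhcga* read 4.93, 5.01 and 5.89 in *il7r*-/- larvae, against 6.41, 6.98 and 6.18 in WT larvae. Which cells expressed these genes was not tested, and no share over all genes stands beside the sum. *ca2*, which encodes a carbonic anhydrase, had a change of -0.81 (limma adjusted p = 0.207), or -1.03 without WT replicate 3, and *slc4a4b*, which encodes a bicarbonate cotransporter, had -0.51 (adjusted p = 0.166). The one marker with a change above 0, *ca15a*, singled out after its values were seen, read 2.22, 1.99 and 2.08 in *il7r*-/- larvae, against 1.86, 1.43 and 1.33 in WT larvae, and 7 of the 18 were dim by the limit given above. WT replicate 3 was below both other WT arrays in 14 of the 18, where it was in 38.8% of all genes. The part of these cells in the changes of *nr3c2*, *sgk1* and *hsd11b2* was not tested. Among pituitary cell markers, set beside *pomca*, 13 of 18 were measured, 9 of them dim by the limit given above. Of the 13, 0 were called and 1 had an unadjusted limma p under 0.05, where 12.3% of all genes did. Their median change was 0.00, or -0.03 without WT replicate 3, and their summed linear level was 243 to 260 in *il7r*-/- arrays and 205 to 308 in WT arrays. These sums were carried by genes that other cells also express, such as *egr1*, an immediate early gene that read 6.42, 6.53 and 6.19 in *il7r*-/- larvae, against 6.94, 6.85 and 5.97 in WT larvae. The 8 measured hormone genes alone summed to 53.9 to 60.2 in *il7r*-/- arrays and 53.9 to 54.8 in WT arrays. The growth hormone gene *gh1* had a change of 0.45 (adjusted p = 0.290), and *pitx1*, which encodes a pituitary transcription factor, had -0.26 (adjusted p = 0.562).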

How the data were processed

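RNA from 6 larval pools was hybridized to Affymetrix Zebrafish Gene ST arrays. The authors processed the scans in Expression Console with RMA (named in the submitters' processing notes), a method of background correction, normalization between arrays and summary of probes into probe sets. The deposited values were read as log2, since the base is not stated and the upper quartiles of the 6 arrays were 4.99 to 5.03. Depth does not apply to arrays. Symbols came from the platform's annotation, in which 855 of 75212 probe sets name several genes and 53551 none, and none of these was used for a gene. For lists, the brightest probe set stood for a gene. No further normalization preceded the fit with limma 3.58.1 under R 4.3.3 (lmFit, eBayes, genotype as factor, two-sided). The replicates are batches of larvae according to the methods, and no label ties their numbers across genotypes. The genes, lists and alternatives were chosen with earlier results of these data known. The genes named are the 10, *il7r*, the 2 with the smallest adjusted p in each list and the 3 profiles nearest to *fkbp5*. Outside this rule, *ca15a*, *egr1*, *rag1*, *atp1b1b*, *atp6v1aa*, *rhcga*, *fdx1b*, *anxa1a* and *anxa1c* were named after their values were seen. Alternatives covered normalization, filtering, rows tested, variance model, array weights, the methods' test, a replicate block and leaving out each array. The fit was also run on simulated data with independent noise and no array set apart. That run does not cover an array such as WT replicate 3. Promoter sequences were not used here.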

Additional observations from a re-analysis of the deposited data

How the results depend on the processing

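None of the 10 genes was called under any of the 18 alternatives, although 9 of these leave every change as it was by construction and alter at most its p or the threshold. Of 90 changes recomputed under the other 9, 86 kept their direction, and the 4 that turned were all among the 60 with 1 array left out. For *klf9* these changes ran from -0.76 to 0.0067, with the positive value without WT replicate 2. For *mc2r* they ran from -0.19 to 0.41, and were -0.19, -0.06 and -0.04 without WT replicate 1, WT replicate 2 and *il7r*-/- replicate 2. The change in *il7r*, of -0.06, was 0.022 without *il7r*-/- replicate 1 and 0.01 without WT replicate 2. The median change of the 10 ran from -0.41 to -0.22 and the number with groups that did not overlap from 5 to 10 when single arrays were left out. The -0.41 and the 10 came without WT replicate 3, and the -0.22 without WT replicate 1. Of the genes in the lists, 0 were called in the fit as reported, where 0.234% of all genes were. Over probe sets that name 1 gene, 1 (*srd5a1*) was called, where 1.11% of all genes were. The methods' test without adjustment called 8, and 2.47% of all genes. The number of genes measured is given with each list. Over all genes, 45 were called, against 87 without the lowest tertile of probe sets, 213 over probe sets that name 1 gene, 106 with an intensity trend and robust prior, 80 with array weights, 475 by the methods' test without adjustment and 0 with it. There were 0 to 61 calls without single arrays. With the replicate number as a block, 0 genes and 0 of the 10 were called by limma, and the median of the 10 was -0.28. In that fit, 2 of the 10 had an unadjusted limma p under 0.05, a count with no share of all genes beside it. Same-numbered arrays did not deviate together (correlations of -0.0081, 0.0034 and 0.023 for replicates 1, 2 and 3, with 2 of 6 arrays closest to their own number). With 3 arrays a group, this cannot show whether same-numbered arrays came from 1 batch of larvae.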

Other observations

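Lists of other cell types were read in the same way. Of 15 measured immune cell genes, 0 were called and 2 had an unadjusted limma p under 0.05, where 12.3% of all genes did. The change was below 0 in 9 of the 15, and the median change was -0.02, or 0.02 without WT replicate 3. *rag2*, a gene of lymphocyte receptor assembly, had a change of 0.36 (adjusted p = 0.342 from limma) and the leukocyte gene *lcp1* had 0.37 (adjusted p = 0.402). *rag2* read 2.26, 2.51 and 2.54 in *il7r*-/- larvae, against 2.06, 2.0 and 2.18 in WT larvae, low values at which a change can be compressed. Its partner gene *rag1*, singled out after its values were seen, did not rise with it. *rag1* read 2.83, 2.91 and 3.37 in *il7r*-/- larvae, against 2.66, 3.49 and 3.03 in WT larvae. The change in *rag1* was -0.02 (limma adjusted p = 0.982), and the groups overlapped. Of the 15 immune cell genes, 11 were dim by the limit given above, *rag1* and *rag2* among them. By in situ hybridisation of larvae of this age, the paper reports a smaller area of *rag1* signal in mutants. That is a measure of the thymus and not of RNA from whole larvae. Of 15 measured liver genes, 0 were called and 2 had an unadjusted limma p under 0.05, where 12.3% of all genes did. The change was below 0 in 13, where it was in 55% of all genes, and the median was -0.25, or -0.15 without WT replicate 3. *apoa2*, which encodes an apolipoprotein, had -0.39 (adjusted p = 0.362) and *ambp*, which encodes a plasma protein precursor, had -0.50 (adjusted p = 0.314) on the brighter of its 2 probe sets, both being -0.17 on average. In WT replicate 3, 11 of the 15 liver genes lay above both other WT arrays, where 34.0% of all genes did, and their mean value was 4.05, against 3.74 and 3.65 in WT replicates 1 and 2. The median gap of the 15 to the mean of the other WT arrays was 0.295. The gap was over 1 in 2 of the genes, which weigh on the mean, and 3 of the 15 lay below both other WT arrays. Of the 10 genes of the stress axis, 5 lay below both other WT arrays in WT replicate 3 and 2 lay above both. Over all genes, these shares were 38.8% and 34.0%. Among the 18 ionocyte markers, 14 lay below both and 2 above both. The part of liver cells in any of these values was not tested.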
